A study of Homo sapiens with 12 samples.

Results

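*BMF* and 9 further genes of the BCL2 family, *BCL2L11*, *BBC3*, *PMAIP1*, *BID*, *BAD*, *BIK*, *BCL2*, *BCL2L1* and *MCL1*, were followed in A375 cells treated with a PPARγ agonist, a PPARγ antagonist or both. They are 10 of the 23705 genes in the count table. *BMF* was selected because its level was lower with the agonist in these same libraries, so its difference between agonist and vehicle is given as a description and without a test. The other 9 genes were taken as named members of the family.

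A375 is a line derived from a human metastatic melanoma, so all values describe 1 line, grown in DMEM medium with serum. The vehicle group received DMSO alone. The RGZ group received 5 μM of rosiglitazone, an agonist of the nuclear receptor PPARγ, the T0070907 group received 2 μM of the PPARγ antagonist T0070907, and the RGZ+T0070907 group received 5 μM and 2 μM of the respective compounds, all diluted in DMSO and for 24 h. Each of the 4 conditions had 3 libraries, numbered 1 to 3 in their labels. The number is taken here as that of an independent experiment. The total count per library was between 8319455 and 11375227, and a floor of 3 counts amounted to 0.258 to 0.371 CPM. CPM is a gene's count scaled to the summed counts of the genes that passed the filter and to the library's TMM factor.

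The BCL2 family decides whether the outer mitochondrial membrane is opened during apoptosis. BH3-only proteins such as those of *BMF*, *BCL2L11* (BIM), *BBC3* (PUMA), *PMAIP1* (NOXA), *BID*, *BAD* and *BIK* promote cell death by binding the anti-apoptotic proteins of *BCL2*, *BCL2L1* (BCL-XL) and *MCL1*, or by activating the pore-forming proteins of *BAX* and *BAK1*. In the melanocyte lineage, *BCL2* is known as a target of the transcription factor MITF, and *BMF* and *BCL2L11* are known for their part in the death of melanoma cells when RAF and MEK signalling is blocked.

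*BMF* lies on chromosome 15 at 40087890 to 40108892 on the minus strand in the GRCh38 annotation used here, where it overlaps the antisense gene *BMF-AS1*, and RefSeq gives its transcripts more than 1 start. Windows from 250 bases before to 50 bases after a start were found for 8 of the 10 genes, 15 windows in all, in GRCh38.p14. Of these 15, 5 were of *BID*, and no window was found for *MCL1* and *BIK*. The windows of *BMF* are shown because its level differed most between conditions, and 1 window each of *BBC3* and *BAD*, the first of 2 for *BAD*, because these BH3-only genes were called in a comparison below. Sequences are written 5′ to 3′ on the minus strand on which all 3 genes lie, and capitals mark matches on either strand to the nuclear receptor motif AGGTCA, the E-box CACGTG, the FOXO core GTAAACA or the GC box GGGCGG.
BMF, first start, chr15:40108830-40109129: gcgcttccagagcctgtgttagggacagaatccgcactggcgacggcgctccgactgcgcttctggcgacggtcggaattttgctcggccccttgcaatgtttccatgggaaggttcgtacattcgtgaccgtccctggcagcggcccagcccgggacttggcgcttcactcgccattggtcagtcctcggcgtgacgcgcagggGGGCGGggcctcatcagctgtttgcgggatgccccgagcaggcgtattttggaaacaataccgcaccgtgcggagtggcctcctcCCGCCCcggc
BMF, second start, chr15:40106917-40107216: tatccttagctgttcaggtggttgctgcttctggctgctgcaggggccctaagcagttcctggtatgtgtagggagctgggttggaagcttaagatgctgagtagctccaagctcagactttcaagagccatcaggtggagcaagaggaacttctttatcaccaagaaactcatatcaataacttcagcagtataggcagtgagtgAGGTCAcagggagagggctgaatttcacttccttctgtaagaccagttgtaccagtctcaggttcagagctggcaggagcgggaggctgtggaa
BBC3, chr19:47232618-47232917: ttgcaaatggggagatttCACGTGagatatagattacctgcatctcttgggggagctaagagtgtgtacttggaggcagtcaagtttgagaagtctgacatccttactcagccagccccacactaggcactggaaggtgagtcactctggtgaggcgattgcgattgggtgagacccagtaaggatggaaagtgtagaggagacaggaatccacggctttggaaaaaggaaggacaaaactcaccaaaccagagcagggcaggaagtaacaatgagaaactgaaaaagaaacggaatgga
BAD, chr11:64284655-64284954: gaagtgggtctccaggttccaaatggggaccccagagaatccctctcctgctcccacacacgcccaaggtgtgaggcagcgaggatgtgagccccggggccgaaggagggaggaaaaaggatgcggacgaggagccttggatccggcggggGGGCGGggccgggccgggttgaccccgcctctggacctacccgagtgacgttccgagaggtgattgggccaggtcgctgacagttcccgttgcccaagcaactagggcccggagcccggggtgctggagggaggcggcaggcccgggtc

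The *BMF* window of the first start held 65% G and C and 2 matches to the GC box, and that of the second start held 50.3% G and C and 1 match to AGGTCA. The *BBC3* window held 1 E-box, and the *BAD* window shown held 1 GC box, as did the other one of this gene, which overlaps it. Among all 35116 windows of the RefSeq table, 13.8% held AGGTCA, 7.26% held CACGTG, 3.42% held GTAAACA and 45% held GGGCGG. A direct repeat of this motif with 1 base between, AGGTCANAGGTCA, which is the arrangement that PPAR and RXR dimers are known to bind, was in 0.0228% of all windows and in 0 of the 15 windows of the family. AGGTCA was in 1, CACGTG in 3, GTAAACA in 1 and GGGCGG in 10 of these 15 windows, several of which overlap. These matches describe letters in a window, and binding was not measured.

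The treatments were read first from genes that PPARγ is known to raise. *FABP4*, a fatty acid-binding protein, had 1 count in each vehicle library and between 1648 and 3513 counts in the RGZ libraries, *ANGPTL4* had 3.41 to 8.36 CPM with vehicle and 384 to 451 CPM with RGZ, and *CPT1A*, the enzyme that commits fatty acids to mitochondrial import, had 57.0 to 69.5 and 103 to 113 CPM. With T0070907 alone, *FABP4* had 0 to 3 counts, and *ANGPTL4*, at 0.358 to 0.948 CPM, and *CPT1A*, at 33.7 to 39.6 CPM, were below every vehicle library. With both compounds *FABP4* had 9 to 25 counts, *ANGPTL4* had 5.68 to 41.6 CPM and *CPT1A* had 47.2 to 65.9 CPM. Of the 8 melanocyte markers, *SOX10* was between 178 and 429 CPM, whereas *TYR* was at 0 in all 12 libraries and *DCT* at 1 count or less. The summed level of this list was 281 to 498 CPM with vehicle, 229 to 422 with RGZ, 327 to 531 with T0070907 and 289 to 478 with both. The summed level of 14 markers of other skin cells was 111 to 140 CPM with vehicle, 108 to 126 with RGZ, 122 to 142 with T0070907 and 128 to 143 with both.

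Levels of different genes were compared per kb of the longest annotated transcript, in the vehicle libraries. *MCL1*, whose protein is anti-apoptotic and short-lived, was the highest member at 129 ± 1.93 CPM per kb (SD, n = 3), and stood at or above 96.4% of the tested genes with a known length. *BCL2L1* followed at 51.6 ± 2.54, *BAD* at 36.2 ± 7.05, *PMAIP1* at 21.8 ± 2.82 and *BID* at 16.3 ± 1.26 CPM per kb. *BBC3* was at 5.28 ± 1.70, *BCL2L11* at 2.74 ± 0.415, *BIK* at 2.43 ± 1.68, *BCL2* at 1.03 ± 0.188 and *BMF* at 0.374 ± 0.00909 CPM per kb. *BMF* was therefore the lowest of the 10, and only 4.72% of the tested genes were at or below it. Among neighbours in this order, the vehicle libraries overlapped for *BCL2L11* and *BIK* and for no other pair. With the union of all exons as the length, 8 of the 10 genes kept their place, and *BIK* and *BCL2L11* changed places. That length lowered the means of 3 members by more than 1.5 times, *BID* to 9.16, *BBC3* to 3.05 and *BCL2* to 0.656 CPM per kb. The effectors *BAX* and *BAK1*, whose proteins form the pore, were at 103 ± 8.63 and 12.04 ± 0.665 CPM per kb, and at 54.1 and 12.04 with the union of exons.

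**Figure D1:**
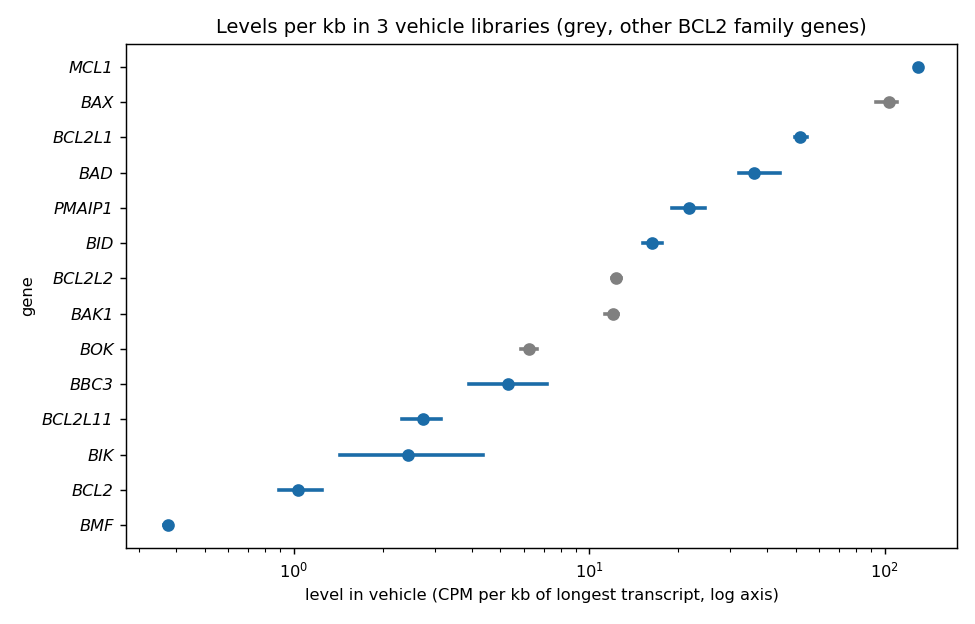
Level of each gene in the vehicle libraries in CPM per kb of the longest transcript, on a log axis, with the mean as a point and a line from the lowest to the highest of 3 libraries. *MCL1* stood at 129 and *BMF* at 0.374 CPM per kb, and the lines of *BCL2L11* and *BIK* overlapped.

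*BMF*, whose protein is held at the cytoskeleton through a dynein light chain until it is released, had 15, 15 and 15 counts in the vehicle libraries of experiments 1, 2 and 3. It had 8, 4 and 5 counts in the RGZ libraries, 21, 25 and 26 in the T0070907 libraries, and 12, 15 and 13 in the RGZ+T0070907 libraries. Scaled for depth, these were 1.70, 1.78 and 1.76 CPM with vehicle and 0.832, 0.457 and 0.507 CPM with RGZ. They were 2.43, 2.24 and 2.24 CPM with T0070907 and 1.48, 1.58 and 1.39 CPM with both compounds. The 3 RGZ libraries were the lowest of the 12 and the 3 T0070907 libraries the highest, and no 2 of the 4 conditions overlapped. In bulk RNA, fewer cells that express a gene and less of its RNA per cell cannot be told apart.

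The counts behind *BMF* were small, and the precision was set by them. Over 3 libraries there were 45 counts with vehicle (exact Poisson 95% interval 32.8 to 60.2), 17 with RGZ (9.90 to 27.2), 72 with T0070907 (56.3 to 90.7) and 40 with both (28.6 to 54.5). Scaled for depth, the intervals were 1.28 to 2.34 CPM with vehicle, 0.351 to 0.964 with RGZ, 1.79 to 2.885 with T0070907 and 1.06 to 2.02 with both. On this scale those of vehicle, T0070907 and both compounds overlapped. These intervals cover counting error only.

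As a description, the fitted log2 fold change of *BMF* was -1.52 for RGZ against vehicle, a level 2.87-fold lower, and its level was lower in 3 of 3 experiments. Across the comparisons that share the vehicle or RGZ libraries with this one, and which therefore carry no test for *BMF*, the log2 fold change was 0.39 for T0070907 against vehicle, -0.24 for both compounds against vehicle and 1.29 for both compounds against RGZ. The difference of the RGZ effect with and without T0070907, the interaction, was 0.90 on the log2 scale. Without the RGZ library of experiment 1, the highest of its group, the log2 fold change of RGZ against vehicle was -1.83.

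The comparison of RGZ+T0070907 with T0070907 alone uses none of the libraries on which *BMF* was selected. Here the level of *BMF* was 1.48 ± 0.0923 against 2.30 ± 0.108 CPM (SD, n = 3 each), lower with RGZ in 3 of 3 experiments and without overlap between the groups. The share of all tested genes without such overlap was not counted. With 12 to 15 and 21 to 26 counts per library, the counting error of these *BMF* levels exceeded the SDs shown. The log2 fold change was -0.63 with an SE of 0.24. It was not called at an adjusted p under 0.05 in edgeR's quasi-likelihood test (adjusted p = 0.281), nor with the experiment as a replicate block (adjusted p = 0.120). Of the 13522 genes tested, 0.037% were called in this comparison without the block and 8.76% with it. The latter share depended on the experiments, at 2.04% without experiment 1, 16.4% without experiment 2 and 0.133% without experiment 3.

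**Figure D2:**
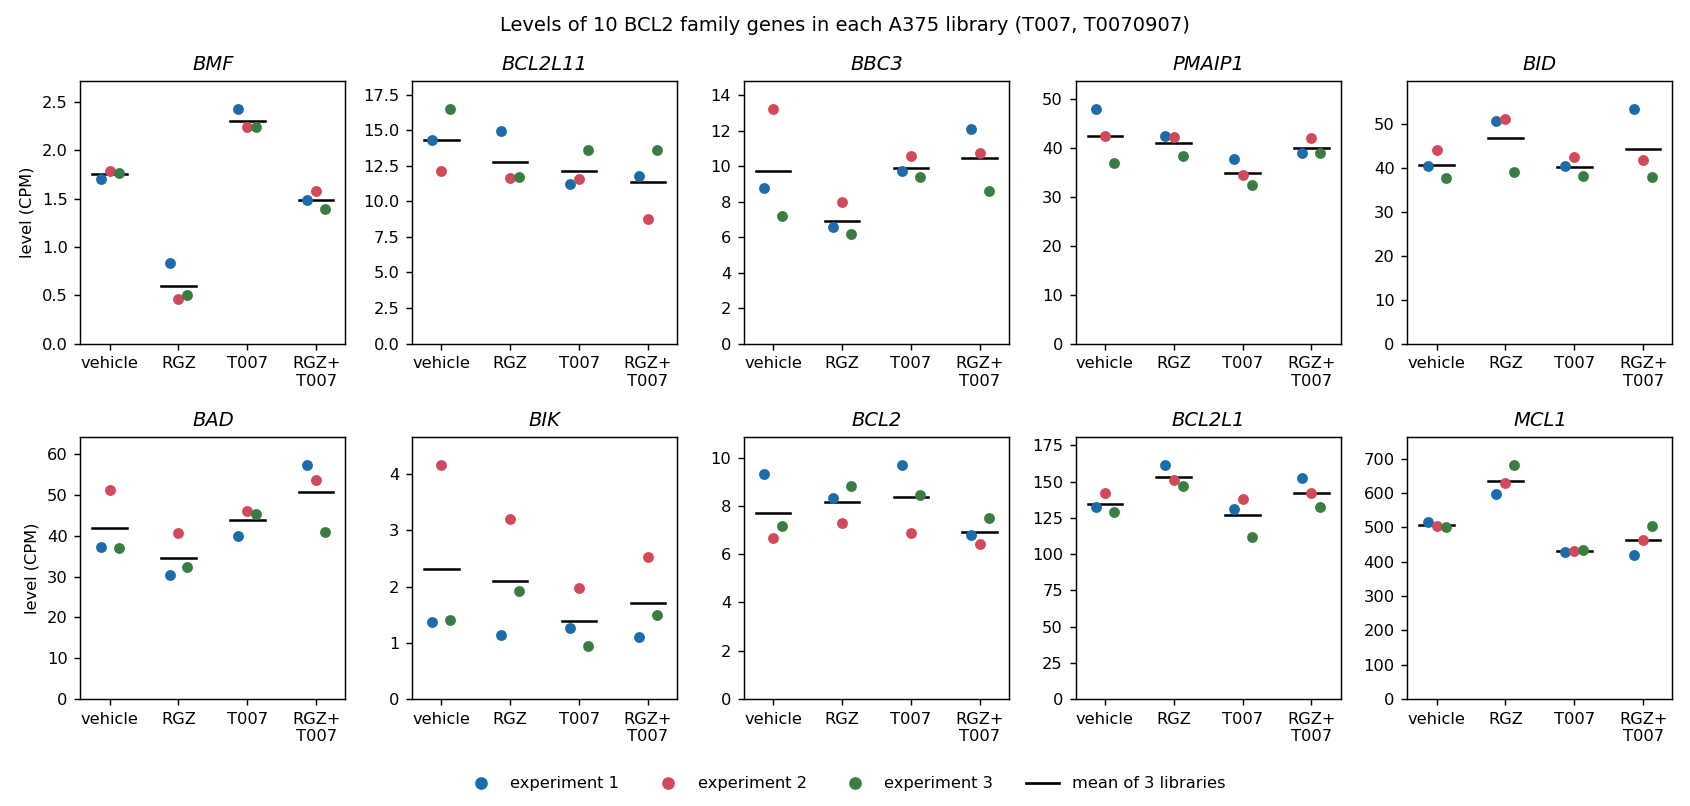
Level in CPM (vertical axis, starting at 0) of each of the 10 genes in the 4 conditions (horizontal axis), with 1 point per library coloured by experiment and a line at the mean of 3. *BMF* ran from 0.457 CPM in an RGZ library to 2.43 CPM in a T0070907 library with no overlap of conditions, and for *MCL1* the RGZ libraries, at 596 to 682 CPM, stood above all others.

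Among the 9 other genes, all of which passed the filter on low counts, 0 were called for RGZ against vehicle in edgeR, where 1.24% of all tested genes were called, and 3 of the 9 had an unadjusted p under 0.05, as did 10.5% of all tested genes. DESeq2 called 1 of the 9 and 2.23% of all tested genes, and limma-voom called 0 of the 9 and 1.13%. With the replicate block edgeR called 1 of the 9, *MCL1*, against 9.3% of all tested genes. The 9 log2 fold changes were between -0.49 and 0.32 with a median of -0.05, beside -0.01 over all tested genes.

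*MCL1* had 516, 504 and 502 CPM in the vehicle libraries of experiments 1, 2 and 3, and 596, 628 and 682 CPM in the RGZ libraries. It had 427, 432 and 434 CPM with T0070907 and 419, 463 and 503 CPM with both compounds. The RGZ libraries were above every other library, and the T0070907 libraries were below every vehicle library. For RGZ against vehicle the log2 fold change was 0.32 with an SE of 0.07, and it was higher in 3 of 3 experiments (edgeR adjusted p = 0.0546). With the replicate block it was called as a rise (0.32, SE 0.06, adjusted p = 0.00103), as it was in DESeq2 (adjusted p = 0.00120). In the block fit without experiment 3 the adjusted p was 0.115.

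*MCL1* was the only one of the 9 genes called in the fit without the block, and this was for RGZ+T0070907 against RGZ, where 1.24% of all tested genes were called. It fell by 0.46 on the log2 scale with an SE of 0.07 (edgeR adjusted p = 0.0107, and 3.20e-05 with the replicate block), lower in 3 of 3 experiments. Without the RGZ library of experiment 3 its adjusted p was 0.0553, and in a fit of only these 2 conditions it was 0.108. This comparison shares the RGZ libraries with that of RGZ against vehicle. For T0070907 against vehicle its log2 fold change was -0.24 with an SE of 0.07 (edgeR adjusted p = 1.00, and 0.0669 with the block), and for the interaction it was -0.23 with an SE of 0.10 (adjusted p = 1.00, and 0.383 with the block).

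*BAD*, whose protein is kept from the mitochondria by phosphorylation, had 37.2, 51.3 and 37.1 CPM with vehicle, 30.4, 40.8 and 32.4 CPM with RGZ, 40.0, 46.1 and 45.4 CPM with T0070907, and 57.4, 53.6 and 41.0 CPM with both, in experiments 1, 2 and 3. The RGZ library was the lowest in each experiment. For RGZ against vehicle *BAD* was not called with or without the block, and its log2 fold change with 1 library left out ran from -0.415 to -0.11. The RGZ+T0070907 and RGZ groups did not overlap, and the log2 fold change between them was 0.56 with an SE of 0.16 (edgeR adjusted p = 0.155). With the replicate block *BAD* was called as higher with both compounds (0.56, SE 0.11, adjusted p = 0.00268), in a fit that called 11.4% of all tested genes, and it was called with any 1 of the 3 experiments left out. *BAD* overlaps *GPR137* on the opposite strand, which had between 436 and 711 counts per library, and whether reads were counted by strand is not given in the sources used here, so reads of both genes cannot be told apart where they overlap.

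*BBC3*, a target of p53, had 8.74, 13.2 and 7.18 CPM with vehicle, 6.55, 7.99 and 6.19 CPM with RGZ, 9.70, 10.6 and 9.39 CPM with T0070907, and 12.1, 10.7 and 8.57 CPM with both. As for *BAD*, the RGZ library was the lowest in each of the 3 experiments. Between RGZ+T0070907 and RGZ the log2 fold change was 0.60 with an SE of 0.22 (edgeR adjusted p = 0.268). With the replicate block it was called as higher with both compounds (0.59, SE 0.16, adjusted p = 0.0206), though not without experiment 1 (adjusted p = 0.200) or without experiment 3 (adjusted p = 0.117). For RGZ against vehicle its log2 fold change was -0.49 with an SE of 0.22 (edgeR adjusted p = 0.456, and 0.0736 with the block). With 1 library left out this log2 fold change ran from -0.67 to -0.21.

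With the replicate block, 3 of the 9 genes were thus called for RGZ+T0070907 against RGZ, *MCL1* lower and *BAD* and *BBC3* higher, against 11.4% of all genes. Without the block it was 1 of 9, beside 1.24% of all tested genes. Both fits used the RGZ libraries that had also been used to select *BMF*.

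The remaining 4 BH3-only genes were called in no comparison, with or without the block, beside 1.63% of all tested genes called in at least 1 comparison without the block and 19.9% with it. *BCL2L11* was between 8.73 and 16.5 CPM over the 12 libraries, with a log2 fold change of -0.16 (SE 0.18) for RGZ against vehicle. *PMAIP1*, which encodes a BH3-only protein selective for MCL1, was between 32.5 and 47.9 CPM, with -0.05 (SE 0.10). *BID*, whose protein is cut by caspases downstream of death receptors, was between 37.8 and 53.4 CPM, with 0.20 (SE 0.13). *BIK*, whose protein sits at the endoplasmic reticulum, had between 9 and 35 counts, with -0.15 (SE 0.51). The library of experiment 2 was the highest for *BIK* in all 4 conditions, at 4.17, 3.20, 1.97 and 2.52 CPM for vehicle, RGZ, T0070907 and both. *BCL2L11* overlaps *MIR4435-2HG* on the opposite strand, so the same limit on strand applies to it. It applies as well to *BMF*, which overlaps *BMF-AS1*, to *BBC3*, which overlaps *MIR3190*, to *BCL2L1*, which overlaps *ABALON* and *AL117381.1*, and to *BCL2*, which overlaps *AC022726.2*. On the same strand, *MCL1* overlaps *ADAMTSL4-AS1*, *BID* overlaps *MIR3198-1*, *BBC3* overlaps *MIR3191* and *BCL2* overlaps *AC022726.1*. Counting by strand would not separate the reads there.

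Among the anti-apoptotic genes, *BCL2L1* had 133, 142 and 129 CPM with vehicle and 162, 151 and 147 CPM with RGZ, without overlap. Its log2 fold change for RGZ against vehicle was 0.19 with an SE of 0.08, higher in 3 of 3 experiments, and it was not called (edgeR adjusted p = 0.473, and 0.0700 with the block). *BCL2* was between 6.41 and 9.70 CPM over the 12 libraries, and its log2 fold change for RGZ against vehicle was 0.08 with an SE of 0.17.

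Set side by side for RGZ against vehicle, 5 of the 6 BH3-only genes other than *BMF* had a log2 fold change below 0, as did 52.4% of all tested genes, and their median was -0.16. All 3 anti-apoptotic genes had a log2 fold change above 0, as did 47.6% of all tested genes, and their median was 0.19. For RGZ+T0070907 against T0070907, which shares no library with the former, 5 of the same 6 BH3-only genes were above 0 with a median of 0.17, and 2 of the 3 anti-apoptotic genes were above 0 with a median of 0.10, beside 48.6% of all tested genes above 0.

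**Figure D3:**
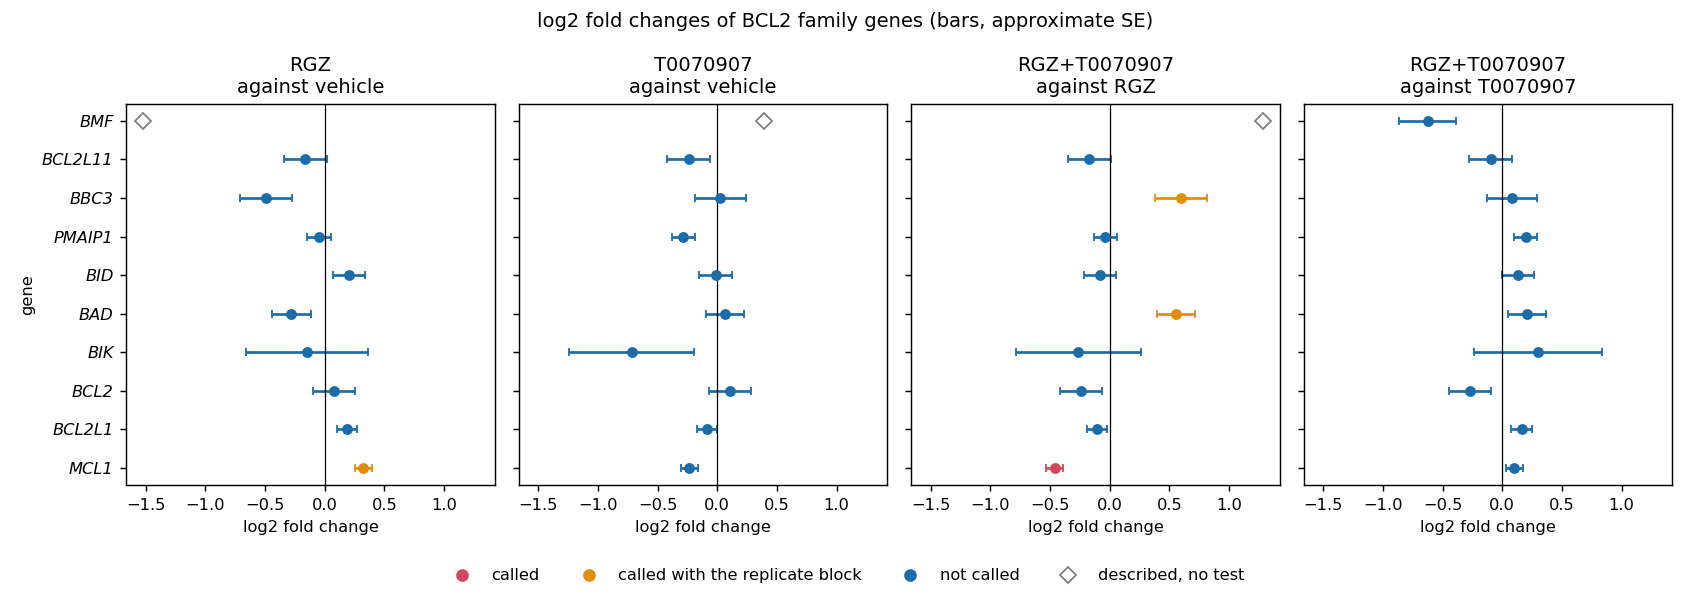
log2 fold change (horizontal axis) of each gene (vertical axis) in 4 comparisons, with bars for the approximate SE, and open diamonds where *BMF* is described without a test. *MCL1* at -0.46 for RGZ+T0070907 against RGZ is the point called without the replicate block, and *MCL1* at 0.32 for RGZ against vehicle and *BBC3* and *BAD* at 0.60 and 0.56 for RGZ+T0070907 against RGZ are those called in edgeR with the block and not without it.

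In the other comparisons 0 of the 9 genes were called. For T0070907 against vehicle the 9 log2 fold changes were between -0.72 and 0.11, 2 had an unadjusted p under 0.05 in edgeR (3.1% of all tested genes did), and 0.0074% of all tested genes were called (0.91% with the block). For RGZ+T0070907 against vehicle they were between -0.41 and 0.28, 0 had such a p (10.6% of all), and 0% of all tested genes were called with or without the block. That 0% rested on experiment 2, since the block fit without it called 19.6% of all tested genes and 1 of the 9, *BAD*. Against T0070907 alone, RGZ+T0070907 gave values between -0.27 and 0.30, and 0 had such a p (15% of all). Here 0.037% of all tested genes were called, and 8.76% with the block, whose fit without experiment 2 called 16.4% and 1 of the 9, *BCL2L1*. The interaction was between -0.35 and 0.57, 1 of the 9 had such a p (3% of all), and 0% of all tested genes were called (0.281% with the block). DESeq2 and limma-voom also called 0 of the 9 genes in each of these 4 comparisons, beside at most 87 of the 13522 tested genes in DESeq2 and at most 5 in limma-voom, both for RGZ+T0070907 against T0070907.

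The further genes of the family and of the pathway were followed as lists. Of 16 other BCL2 family genes, 11 passed the filter on low counts and 0 were called in any comparison with or without the block, beside 19.9% of all tested genes called in at least 1 comparison with it and 1.63% without it. *BAX* was between 127 and 199 CPM, with a log2 fold change of 0.12 (SE 0.10) for RGZ against vehicle, and *BAK1* was between 24.9 and 30.8 CPM, with -0.03 (SE 0.09). *BCL2A1*, an anti-apoptotic gene known as a target of MITF in melanoma, did not pass the filter and had between 0 and 18 counts. The median log2 fold change of the 11 genes for RGZ against vehicle was -0.03.

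Of 20 genes of the mitochondrial apoptosis machinery, 19 were tested and 0 were called without the block, against 3 of 19 in at least 1 comparison with it, beside the same 19.9% of all tested genes. *VDAC1*, a channel of the outer mitochondrial membrane, had 364, 344 and 343 CPM with vehicle and 403, 420 and 405 CPM with RGZ. It rose in the block fit for RGZ against vehicle (0.22, SE 0.05, edgeR adjusted p = 0.0126) and for RGZ+T0070907 against T0070907 (0.19, SE 0.05, adjusted p = 0.0427). *CYCS*, which encodes cytochrome c, was higher in the block fit for RGZ+T0070907 against T0070907 (0.20, SE 0.06, adjusted p = 0.0459). *CASP6*, an executioner caspase, was higher in the block fit for RGZ+T0070907 against RGZ (0.40, SE 0.12, adjusted p = 0.0406). The median log2 fold change of the 19 genes was 0.01 for RGZ against vehicle.

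Of 18 regulators and partners of BH3-only proteins, all were tested, 0 were called without the block and 3 of 18 in at least 1 comparison with it, beside 19.9% of all tested genes. *MYO5A*, the myosin V motor to which BMF is linked in the cell, had 71.3, 68.3 and 69.1 CPM with vehicle and 59.5, 49.2 and 64.7 CPM with RGZ. It fell in the block fit for RGZ against vehicle (-0.27, SE 0.07, edgeR adjusted p = 0.0281) and for RGZ+T0070907 against T0070907 (-0.27, SE 0.07, adjusted p = 0.0328). *MITF*, the transcription factor of the melanocyte lineage, had 48.6, 56.6 and 32.6 CPM with vehicle and 40.9, 43.8 and 24.4 CPM with RGZ, with experiment 3 the lowest in all 4 conditions. It fell in the block fit for RGZ against vehicle (-0.34, SE 0.08, adjusted p = 0.00997) and was higher for RGZ+T0070907 against RGZ (0.27, SE 0.08, adjusted p = 0.0378). *DDIT3*, a transcription factor of the stress response, was higher in the block fit for RGZ+T0070907 against RGZ (0.38, SE 0.09, adjusted p = 0.0111). The median of the 18 genes for RGZ against vehicle was -0.09, and 14 of the 18 were below 0, beside 52.4% of all tested genes.

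Among 14 genes of the death receptor pathway, 10 were tested. None of the 10 was called without the block, and 2 of 10 were called in at least 1 comparison with it, beside 19.9% of all tested genes. *TNFRSF1A*, a receptor of tumour necrosis factor, had 143, 186 and 140 CPM with vehicle, 218, 312 and 211 CPM with RGZ, 126, 156 and 127 CPM with T0070907, and 174, 203 and 169 CPM with both. Every RGZ library was above every vehicle library. In the block fit it rose for RGZ against vehicle (0.65, SE 0.06, edgeR adjusted p = 1.43e-06, and 0.0822 without the block), was lower for RGZ+T0070907 against RGZ (-0.42, SE 0.06, adjusted p = 0.000143) and was higher for RGZ+T0070907 against T0070907 (0.42, SE 0.06, adjusted p = 0.000795). *TNFRSF10A*, a receptor of TRAIL, rose for RGZ against vehicle (0.34, SE 0.10, adjusted p = 0.0354) and was lower for RGZ+T0070907 against RGZ (-0.45, SE 0.10, adjusted p = 0.00578) in the block fit. *FASLG*, *TNFSF10* and *TNFRSF10D* were at 0 counts in all libraries.

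**Figure D4:**
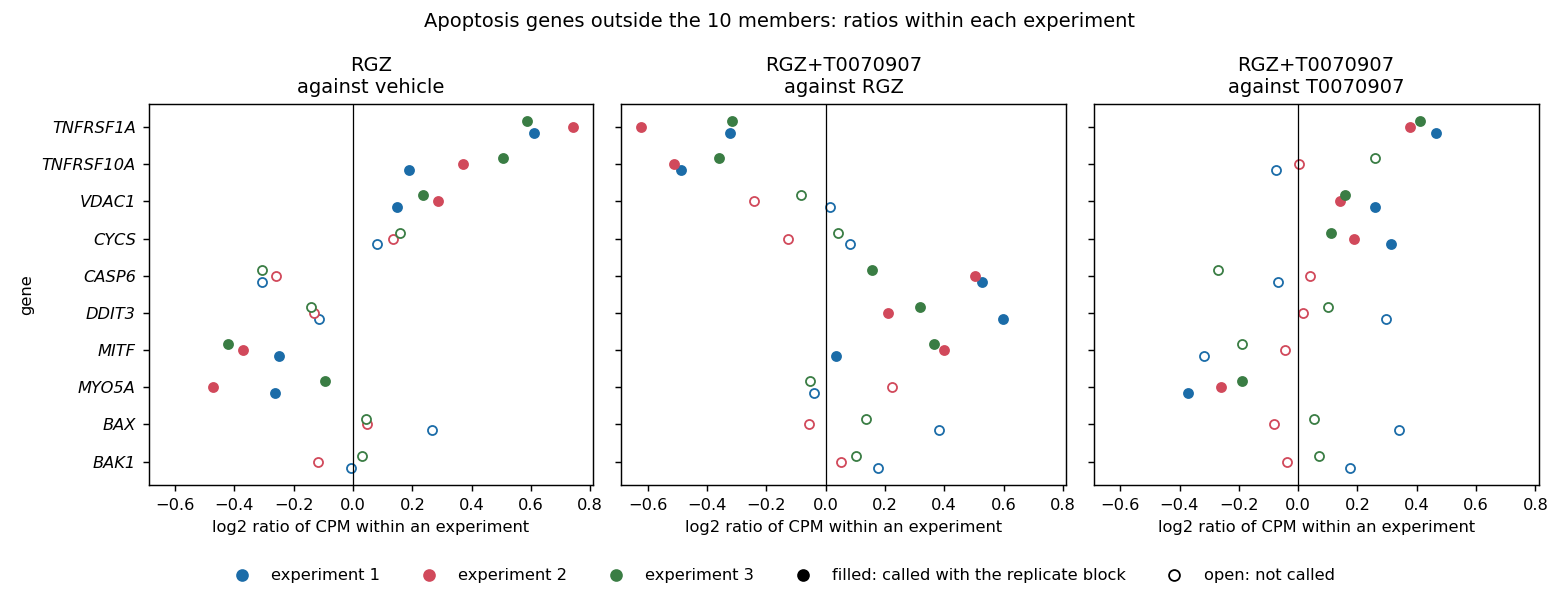
Ratio of CPM between conditions within each experiment on the log2 scale (horizontal axis) for 8 pathway genes called with the replicate block in at least 1 comparison and for *BAX* and *BAK1* (vertical axis), with filled points where the gene was called in that comparison. The ratios of *TNFRSF1A* were above 0 in 3 of 3 experiments for RGZ against vehicle and for RGZ+T0070907 against T0070907.

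Some markers of the lineage and of other skin cells fell with RGZ in the block fit, where 9.3% of all tested genes were called. Of the 4 melanocyte markers that passed the filter on low counts, *MITF* and *S100B* fell for RGZ against vehicle (*S100B* -1.02, SE 0.13, edgeR adjusted p = 3.73e-05), and of the 8 tested markers of other cells *KRT14* (-0.94, SE 0.14, adjusted p = 0.000182) and *COL1A1* (-0.76, SE 0.13, adjusted p = 0.000672) fell. The other 6 of the 8 were not called, and 3 of them had a log2 fold change above 0, the largest being 0.41 for *LYZ* (SE 0.14, adjusted p = 0.0848). In the comparison of RGZ+T0070907 with RGZ, in which *MCL1*, *BAD* and *BBC3* were called, *S100B* (1.34, SE 0.13, adjusted p = 1.61e-06), *KRT14* (1.10, SE 0.14, adjusted p = 3.20e-05) and *MITF* were called as higher with both compounds. *S100B* was also called as higher with T0070907 alone than with vehicle (0.59, SE 0.11, adjusted p = 0.0119). Between RGZ+T0070907 and T0070907, *COL1A1* was lower (-0.55, SE 0.12, adjusted p = 0.0125) and *LYZ* higher (0.54, SE 0.15, adjusted p = 0.0390). *PMEL*, *MLANA*, *TYRP1*, *DCT* and *TYR*, which define pigmented melanocytes, had at most 13 counts in any library. Whether these markers have a part in the values of the BCL2 family was not tested.

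Over all 12 libraries and 13217 other genes whose mean reached 1 CPM, the 5 genes whose log2 CPM followed *BMF* most closely were *CRYBG1* (Pearson r = 0.98), *EFEMP1* (0.96), *EPHA7*, an ephrin receptor (0.96), *MPP2* (0.96) and *PDP1*, a phosphatase that activates pyruvate dehydrogenase (0.95). *CRYBG1* had means of 59.8, 37.6, 73.6 and 54.6 CPM with vehicle, RGZ, T0070907 and both, the order seen for *BMF*. *EFEMP1*, which encodes a protein of the extracellular matrix, had means of 41.2, 18.2, 55.8 and 42.2 CPM. The 3 genes that ran most opposite were *PTHLH* (r = -0.98), *VMP1*, a membrane protein of autophagy (-0.97), and *ANXA5*, which encodes annexin A5 (-0.97). *PTHLH*, a hormone-like secreted peptide, had means of 8.01, 15.98, 6.44 and 8.58 CPM. Of the family, *MCL1* had the most negative r with *BMF*, -0.90, at place 13108 of 13217, and *BBC3* the most positive, 0.61, at place 1068. The 12 points share their conditions and experiments, and *BMF* was itself selected on the RGZ and vehicle libraries, so these values describe the pattern and carry no test. After the mean of each experiment was subtracted, 1 of these 5 genes stayed among the 5 highest, *CRYBG1* at r = 0.98.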

How the data were processed

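RNA of A375 cells was sequenced in 4 conditions with 3 libraries each. The authors deposited raw counts of reads per gene for 23705 genes, of which 23538 gene numbers matched a symbol, with 0 columns of other samples. The submitters' processing notes name hg 19 as the genome build. The aligner, the counter, the annotation and the use of strand are not given in the sources used here. Positions and transcript lengths came from a GRCh38 annotation and were used only for lengths, overlaps and names.

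Libraries were assigned to conditions and experiments from their labels. The counts were scaled by TMM, filtered by filterByExpr and tested in edgeR 4.0.16 (R 4.3.3) by the quasi-likelihood method, with 1 coefficient per condition fitted to the 12 libraries and 6 contrasts between them. A gene was called when its p-value, adjusted by Benjamini and Hochberg's method over the 13522 tested genes, was under 0.05. SEs were approximated from the log2 fold change and its F statistic. Levels are TMM-scaled CPM, and correlations used log2 CPM with a prior count of 2. The labels number the 3 libraries of each condition, and this number was taken here as that of an independent experiment that pairs the libraries. Deviations from the condition means correlated between libraries of the same experiment by 0.554 on average (0.0793 to 0.758, with 17 of 18 pairs over 0.1), and all 12 libraries correlated best with their own experiment. The fit with the experiment as a replicate block was therefore set beside the main one. The alternatives were this block, DESeq2 1.42.0, limma-voom (limma 3.58.1) with and without the block, DESeq2's size factors within edgeR, other filters, fits of only the groups compared, a threshold of 0.01 and leaving out each library. Leaving out each experiment in the block fit was added after the data had been seen. The tests were tried on simulated data.

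The 10 genes, the lists and the rule for naming genes were chosen with earlier results of these data known. Named were the 10 genes, genes of the lists called in at least 1 contrast (at most 8 per list), *BAX*, *BAK1* and *BCL2A1*, the 5 genes most like and 3 most unlike *BMF*, and *FABP4*, *ANGPTL4* and *CPT1A*. Also named, though not called, were some cell markers, genes without counts in any library and genes that overlap the 10. Sequences came from RefSeq. With 3 libraries a group, p-values without the block measure the spread between libraries of a condition. Those with the block measure the spread left after differences between experiments are fitted. The total count per library, from 8319455 to 11375227, limits the precision of low genes such as *BMF* and *BIK*.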

Additional observations from a re-analysis of the deposited data

How the results depend on the processing

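Of the 9 genes other than *BMF*, 0 were called for RGZ against vehicle in the main fit, but 1 (*MCL1*) was called with the replicate block, 1 in DESeq2 and 1 in limma-voom with the replicate block. For RGZ+T0070907 against RGZ, 1 was called in the main fit, 3 with the replicate block, 3 in limma-voom with the block, 0 in a fit of only the groups compared and 0 at an adjusted p under 0.01. With 1 library of these groups left out this count was 0 to 1, beside 0.386% to 0.951% of all tested genes. The 0 came without the RGZ library of experiment 3, where 0.46% of all tested genes were called. The counts for the other comparisons stayed at 0 under every alternative without a left-out experiment. In the block fit, leaving out 1 experiment gave counts of 0 (without experiment 3) to 2 (without experiment 2) for RGZ against vehicle, beside 2.96% to 7.59% of all tested genes, and 2 to 3 for RGZ+T0070907 against RGZ, beside 3.8% to 16.6%. Without experiment 2, 1 of the 9 was also called for RGZ+T0070907 against vehicle (*BAD*, beside 19.6% of all tested genes) and 1 against T0070907 (*BCL2L1*, beside 16.4%). Over 15 alternatives each, the adjusted p of *MCL1* ran from 0.000816 to 0.217 for RGZ against vehicle and from 2.99e-07 to 0.108 for RGZ+T0070907 against RGZ, where it ran from 0.00268 to 0.460 for *BAD* and from 0.0206 to 0.596 for *BBC3*. The log2 fold change of *BMF* for RGZ+T0070907 against T0070907 stayed below 0 and was called under none of 14 alternatives, with -0.67 to -0.58 when 1 library was left out and adjusted p from 0.120 to 0.657. *BMF* and *BIK* were removed by the filter of at least 10 counts in every library. Values near 0 changed sign when 1 library was left out, namely *PMAIP1* (-0.137 to 0.0499), *BIK* (-0.58 to 0.58) and *BCL2* (-0.0161 to 0.237) for RGZ against vehicle, and *BID* (-0.236 to 0.0194) and *BIK* (-0.66 to 0.17) for RGZ+T0070907 against RGZ, and none of these was called. Over all genes, the calls for RGZ against vehicle were 167 in the main fit, 1258 with the replicate block, 302 in DESeq2, 69 in a fit of only the groups compared and 1220 in limma-voom with the block. For RGZ+T0070907 against RGZ they were 167, 1545, 313, 41 and 1466, and for RGZ+T0070907 against T0070907 5, 1185, 87, 0 and 1009. The cause was not tested. Among the 10 genes, *BMF* had the fewest counts, with 17 over the 3 RGZ libraries.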
